A study of Mus musculus with 9 samples.

Results

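The level of every protein-coding gene was compared between mice of both non-WT genotypes, Hmga2-/- and K5H2, and WT mice, with the mean of the Hmga2-/- and K5H2 group means set against the WT mean on log2(normalized count + 1). A protein-coding gene entered if its normalized count was 10 or more in at least 3 of the 9 libraries. This left 12968 of the 22028 protein-coding genes in the table, which lists 55536 genes of every kind. The filter passed 68 genes whose third-highest value was exactly 10 and left out 129 whose third-highest value was exactly 9. A gene was called changed at an adjusted p under 0.05 (limma, Benjamini-Hochberg over 14695 genes of every kind that passed the filter). It was called separated if all 6 non-WT libraries lay on the same side of all 3 WT libraries.

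The groups were 3 Hmga2-/- mice, 3 K5H2 mice and 3 WT mice, each a separate animal of 8 weeks, when back hair follicles rest. All 9 received UVB on the back, 2 doses of 20 mJ/cm2 in 3 days, and the skin was taken 24 h after the last dose. The comparison is therefore between genotypes after UVB, and no unexposed skin was analysed here. Cells of the epidermis were freed from the skin by a night on 0.25% trypsin, their RNA was purified on micro-scale columns, and strand-marked libraries were made from polyadenylated RNA. The sources used here do not say which part of Hmga2 is missing in Hmga2-/- mice or what the name K5H2 stands for. The K5H2 columns carry sample codes from another number series than those of the Hmga2-/- and WT columns. What the codes stand for is not stated, and genotype and number series cannot be told apart for K5H2.

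Hmga2 is a chromatin protein of the high-mobility-group A family that binds AT-rich DNA and is active mainly in embryos and in some stem cells. UVB damages DNA in keratinocytes, which answer with a repair and stress programme resembling that of a healing wound, in which keratins 6 and 16, small proline-rich proteins and late cornified envelope proteins of the Lce3 group replace part of the usual outfit of the differentiating layers. Keratinocytes also signal to the melanocyte stem cells of the follicle through secreted factors, some of them under the control of the second messenger cAMP.

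Hmga2-/- 3 was the shallowest library, with about 15.4 M reads in genes, and the rest had 28.1 to 41.5 M. Mitochondrial transcripts held 0.502% and 0.279% of the normalized counts in Hmga2-/- 2 and Hmga2-/- 3, against 0.983% to 2.15% in the other 7. The keratinocyte keratins Krt5 and Krt14 and the transcription factor Trp63 were abundant in every library, Krt5 with 465923 to 636557 normalized counts in the 6 non-WT libraries and 535195 to 569546 in WT. WT 1 stood apart from WT 2 and WT 3, with the highest summed level of wound and stress keratinocyte genes of all 9 libraries and the lowest of Langerhans cell and T cell genes. WT 1 was the highest of the 9 libraries for 145 of the 157 genes that were called lower and separated, and the lowest for 42 of the 58 called higher and separated.

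Hmga2 itself (chromosome 10, 120361275 to 120476469, GRCm38) had 3, 9 and 7 normalized counts in Hmga2-/-, 4, 11 and 0 in K5H2, and 346, 11 and 56 in WT. WT 2 was as low as the highest K5H2 library, so the groups met there, while WT 1 and WT 3 stood above all 6. The pooled log2 difference was -3.58 (SE 1.01), short of the threshold (limma adjusted p = 0.0998). An exact two-sided permutation test over the 84 ways to choose 3 of 9 libraries gave p = 0.0476, where the smallest possible value is 0.0238. Without WT 2 the difference was -4.76 and passed (limma adjusted p = 0.0279). Without WT 1 it was -2.34 (limma adjusted p = 0.454) and without WT 3 -3.64 (limma adjusted p = 0.249), neither past the threshold.

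In the pooled contrast 227 protein-coding genes were called, which is 1.75% of those tested, with 164 lower (1.26%) and 63 higher (0.486%) in the non-WT genotypes. An unadjusted p under 0.05 was reached by 2799 genes. Separation of all 6 from all 3 libraries was seen for 1197 genes (9.23%), of which 719 were lower (5.54%) and 478 higher (3.69%). Both criteria were met by 215 genes, 157 lower (1.21%) and 58 higher (0.447%), and 982 were separated without being called. The smallest adjusted p above the threshold belonged to Kif1a (0.0514) and the largest below it to Rptn (0.0497). The median log2 difference of all genes tested was -0.008, against -1.86 for the 157 and 1.28 for the 58, medians that the choice by size and direction fixes. The Hmga2-/- against WT and K5H2 against WT contrasts share the WT libraries and called 95 (0.733%) and 156 (1.2%) genes.

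The number of calls depended on which WT animals were in the fit. Without WT 1 only 14 genes were called (10 lower, 4 higher) and without WT 3 only 1, while without WT 2 the number was 501 (312 lower, 189 higher). It was 75 without Hmga2-/- 1, 56 without Hmga2-/- 3 and 101 without K5H2 1. Without both WT 1 and Hmga2-/- 3, 6 genes were called, among them Ccn2, Oxtr and Krt32 higher and Pi15 and Trim12a lower. Ccn2, Ddr2, Igfl3, Trim12a, Ptgds, Fabp5, Chil1, Oxtr, Has3, Pi15 and Igsf3 lost their calls only without WT 3, and Tnc and Duox1 without WT 3 or Hmga2-/- 3. Every other call named here was lost both without WT 1 and without WT 3, and some without further libraries. A lost call need not mean a changed difference. Without WT 3 Ptgds had a log2 difference of 1.91 (SE 0.29), against 1.95 (SE 0.23) with all 9 libraries. WT 1 and WT 2, the pair then left, were the least alike of the WT libraries. Why the calls were lost was not tested. WT 2 was the WT library nearest to the other genotypes for 142 of the 157 lower and 43 of the 58 higher genes.

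**Figure D1:**
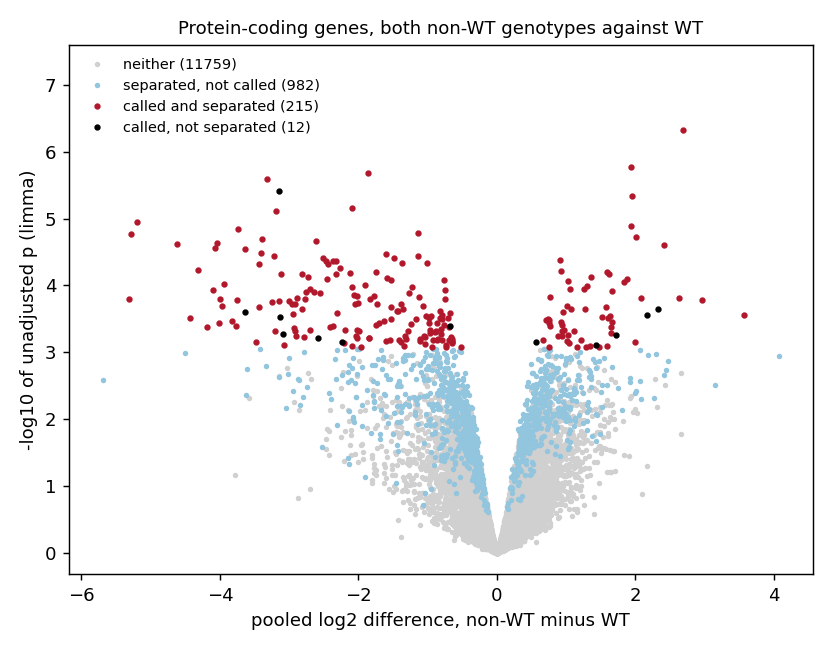
Each point is a protein-coding gene, with the pooled log2 difference (non-WT minus WT) on the x axis and the negative log10 of the unadjusted limma p on the y axis. The 215 genes called and separated are in red, the 12 called without separation in black, the 982 separated without a call in light blue and the rest in grey.

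Keratinocyte genes of wounded and stressed epidermis made up the list with the most falls. Of 29 members tested, 16 fell, none rose and 13 did not pass, and 16 were separated, all lower, against 1.26% called lower and 5.54% separated lower among all genes. This list, like the others, was chosen with earlier results of these data known, so its shares are descriptions and not a test. Its median log2 difference was -2.86, with all 29 values below 0. The summed level of the list was 126854 to 226584 normalized counts in Hmga2-/-, 150082 to 380735 in K5H2 and 519195 to 1458480 in WT, so that the sums did not overlap. The most abundant members, such as Krt6a and Krt6b, weigh most in such a sum. In bulk RNA, fewer cells of a type and less RNA per cell cannot be told apart, here and in what follows. Without both WT 1 and Hmga2-/- 3 none of the 16 calls held. The 16 members stayed separated, which leaving libraries out cannot undo.

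Krt6b (chromosome 15, 101676023 to 101680287), a keratin of wounded and hyperproliferative epidermis, had 1331, 8108 and 2350 normalized counts in Hmga2-/-, 8879, 56167 and 19194 in K5H2, and 323404, 94151 and 240867 in WT. K5H2 2 came nearest to WT, and no library crossed over. Its log2 difference was -4.62 (SE 0.65, adjusted p = 0.0157). The neighbouring Krt6a, which encodes the near-identical keratin 6A, had 11832, 29438 and 13427 in Hmga2-/-, 47600, 93225 and 29875 in K5H2, and 512372, 129331 and 304316 in WT, a difference of -3.22 (SE 0.48, adjusted p = 0.0174). The reads of Krt6a and Krt6b may have been divided between the copies by the counting. Krt16, the type I partner of the keratins 6, ran from 17472 to 45891 in Hmga2-/- and from 27089 to 92718 in K5H2, against 147171 to 350701 in WT (log2 difference -2.81, SE 0.45, adjusted p = 0.0192). The calls of Krt6a and Krt6b held in 7 of the 9 leave-one-out fits and that of Krt16 in 6.

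Cornified envelope precursors fell with them. Sprr2a3, a small proline-rich protein that is crosslinked into the envelope, had 219, 144 and 44 normalized counts in Hmga2-/-, 54, 271 and 252 in K5H2, and 987, 1172 and 1392 in WT, a log2 difference of -3.15 (SE 0.56, adjusted p = 0.0261). The WT animals were close to each other here and every non-WT animal lay well below them, with a gap of -1.86. The gap is the log2 distance from the nearest WT library to the nearest non-WT library. Sprr1b had 1567 to 4607 in Hmga2-/- and 2483 to 6299 in K5H2, against 10014 to 33190 in WT (log2 difference -2.73, SE 0.44, adjusted p = 0.0202). Lce3f, a late cornified envelope protein, had 11, 23 and 2 in Hmga2-/-, 4, 9 and 12 in K5H2, and 277, 76 and 85 in WT (log2 difference -3.75, SE 0.67, adjusted p = 0.0258). Sprr2 and Lce3 genes are families of close copies whose reads may have been split between members. The call of Sprr2a3 held in 7 of the 9 leave-one-out fits and those of Sprr1b and Lce3f in 6.

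Of 40 tested members of the granular and cornified layer list, the genes of ordinary differentiation, 2 fell (Rptn and Tgm3), none rose and 38 did not pass, with a median of -0.27. Log2 differences were below 0 in 26 of them, and 8 were separated lower and none higher, against 1.26% called lower and 5.54% separated lower among all genes. Tgm3, a transglutaminase that crosslinks the envelope, had 2065 to 2123 normalized counts in Hmga2-/- and 1779 to 2756 in K5H2, against 3214 to 4188 in WT (log2 difference -0.76, SE 0.15, adjusted p = 0.036). Krt10, the main keratin of the spinous layer, had 1110800 to 2210490 in Hmga2-/-, 945654 to 1257230 in K5H2, and 329606, 1197580 and 820138 in WT, and did not pass (adjusted p = 0.313). The call of Rptn held in 3 of the 9 leave-one-out fits and that of Tgm3 in 2.

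Stfa2, Pi15, Tmprss11b and Gjb2 were among the largest falls of single genes, and Klk13, Klk6, Gsdmc and Gjb6 are given beside them, chosen after their values were seen. Stfa2, a stefin A type inhibitor of cysteine proteases, had 10, 20 and 5 normalized counts in Hmga2-/-, 20, 195 and 29 in K5H2, and 1284, 440 and 1131 in WT, a log2 difference of -5.19 (SE 0.68, adjusted p = 0.0139). K5H2 2 again lay highest among the 6. Pi15, a secreted peptidase inhibitor, had 24, 49 and 14 in Hmga2-/-, 33, 49 and 46 in K5H2, and 1888, 229 and 419 in WT, and was the gene with the widest gap among the lower genes, -2.20 (log2 difference -4.07, SE 0.58, adjusted p = 0.0168). Its call was lost only without WT 3. Tmprss11b, a membrane-anchored serine protease, had 2 to 12 in Hmga2-/- and 6 to 28 in K5H2, against 608, 128 and 164 in WT (log2 difference -4.32, SE 0.68, adjusted p = 0.0192). Klk13 and Klk6, kallikrein serine proteases, and Gsdmc, a gasdermin, also fell (log2 differences -3.44, -2.70 and -2.62; adjusted p = 0.0174, 0.0239 and 0.0157). Gjb2, which encodes the gap junction protein connexin 26, had 347, 521 and 171 in Hmga2-/-, 561, 1886 and 503 in K5H2, and 25293, 2603 and 7206 in WT. WT 1 was far above all others for Gjb2 (log2 difference -3.95, SE 0.65, adjusted p = 0.0221), and its neighbour Gjb6, which encodes connexin 30, fell by 2.37 (adjusted p = 0.0363). Of the 9 leave-one-out fits, 7 kept the calls of Stfa2, Tmprss11b, Klk13 and Gsdmc, 6 those of Klk6 and Gjb2, and 3 that of Gjb6.

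**Figure D2:**
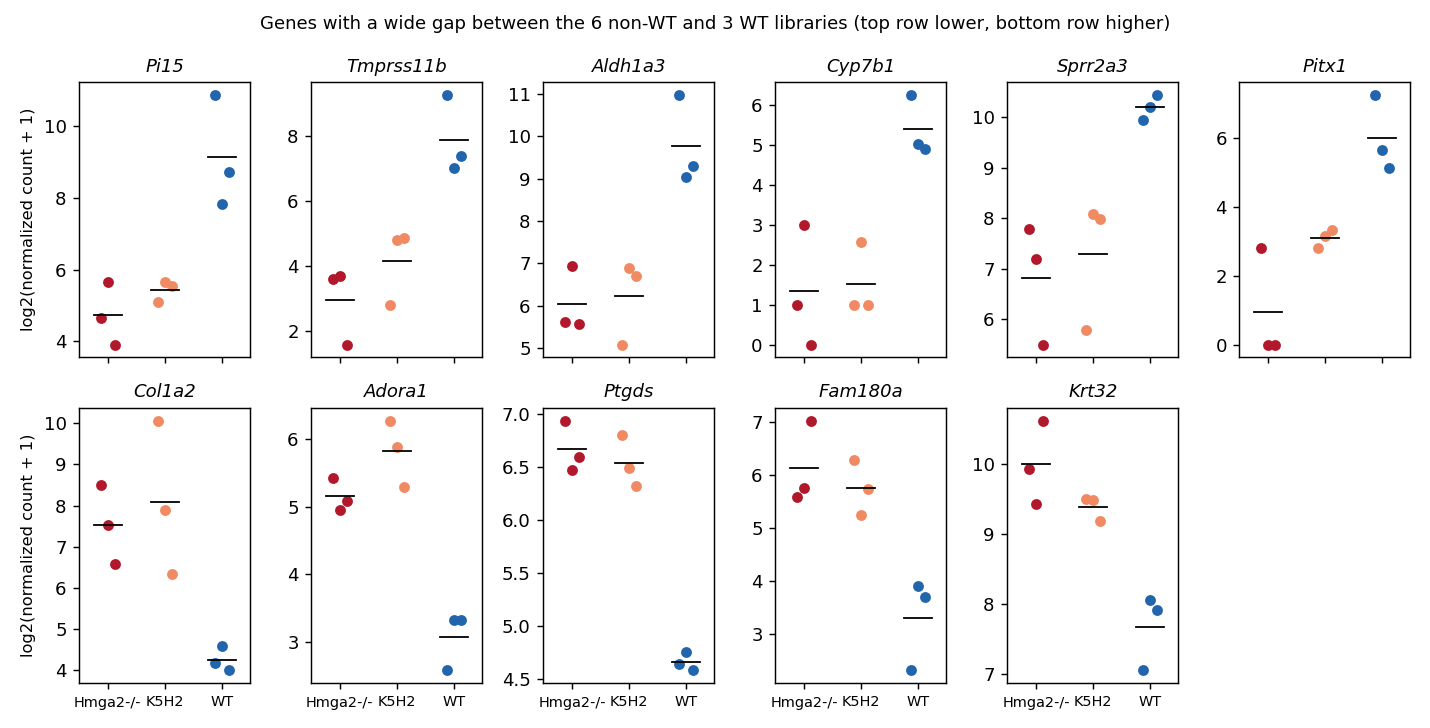
Normalized counts on the log2(value + 1) scale (y axes, scaled to each gene) of 6 lower and 5 higher genes with wide gaps, by genotype (x axes). Points are the 3 libraries of a genotype and bars are their means; in every panel all 6 Hmga2-/- and K5H2 points lie on the same side of all 3 WT points, as the choice of genes requires.

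Genes of retinoid handling held 3 falls and no rise among 16 tested, with a median of -0.28, and 4 were separated lower, against 1.26% called lower and 5.54% separated lower among all genes. Lrat, the enzyme that stores retinol as retinyl esters, had 0, 6 and 2 normalized counts in Hmga2-/-, 13, 49 and 18 in K5H2, and 936, 152 and 216 in WT, a log2 difference of -5.28 (SE 0.72, adjusted p = 0.0148). Aldh1a3, which oxidises retinaldehyde to retinoic acid, had 48, 122 and 47 in Hmga2-/-, 33, 117 and 104 in K5H2, and 2011, 528 and 623 in WT (log2 difference -3.63, SE 0.52, adjusted p = 0.0168). Both genes were low in all 6 non-WT animals and highest in WT 1. Rbp2, a cellular retinol-binding protein, had 936 to 1745 in Hmga2-/- and 717 to 1349 in K5H2, against 2713 to 3901 in WT (log2 difference -1.61, SE 0.24, adjusted p = 0.0174). The retinoic acid receptor genes Rara and Rarg had log2 differences of 0.45 and 0.22 and were not called. The 3 calls held in 7 of the 9 leave-one-out fits.

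Of 10 tested genes of hyaluronan metabolism 2 fell, none rose, 3 were separated lower and the median was -0.59, against 1.26% called lower and 5.54% separated lower among all genes. Has3, a hyaluronan synthase, had 30, 33 and 26 normalized counts in Hmga2-/-, 63, 135 and 58 in K5H2, and 1755, 259 and 623 in WT, a log2 difference of -3.73 (SE 0.50, adjusted p = 0.0148). Cemip, which takes part in hyaluronan breakdown, had 1, 0 and 7 in Hmga2-/-, 10, 16 and 22 in K5H2, and 296, 62 and 70 in WT (log2 difference -4.10, SE 0.70, adjusted p = 0.0239). For both genes the Hmga2-/- animals were lowest, K5H2 lay between and no library overlapped with WT. The other synthases Has1 and Has2 had values of -1.60 and -1.50 and did not pass. The call of Cemip held in 6 of the 9 leave-one-out fits and that of Has3 in 8.

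Among 21 tested sebaceous gland genes 2 fell, Fabp5 and Elovl3, and 6 were separated lower and 1 higher (median -0.70). Of all genes 1.26% were called lower, 5.54% separated lower and 3.69% separated higher. Fabp5, a fatty acid binding protein of keratinocytes and sebocytes, had 11997, 12785 and 9849 normalized counts in Hmga2-/-, 11175, 17550 and 9299 in K5H2, and 73589, 34055 and 51234 in WT. The 6 non-WT animals were alike and all below WT (log2 difference -2.09, SE 0.26, adjusted p = 0.0104), and the call was lost only without WT 3. Elovl3, which lengthens fatty acids, had a difference of -2.09 (SE 0.45, adjusted p = 0.0492). Of 23 tested target genes of NRF2, the regulator of antioxidant defence, 3 fell, 20 did not pass and the median was -0.13, with 5 separated lower and 1 higher. Those that fell were Gsta4, a glutathione transferase (-2.95, adjusted p = 0.0308), Slc7a11, the cystine importer (-1.99, adjusted p = 0.0386), and Srxn1, sulfiredoxin (-0.80, adjusted p = 0.0325). Other NRF2 targets such as Nqo1 (-0.67) and Gclc (0.08) did not pass. The calls held in 4 of the 9 leave-one-out fits for Gsta4, in 3 for Srxn1 and in 1 for Slc7a11 and Elovl3.

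Igfl3 and Ddr2, both chosen after their values were seen, fell. Igfl3, a secreted protein of the IGF-like family, had 24, 47 and 26 normalized counts in Hmga2-/-, 113, 124 and 40 in K5H2, and 622, 526 and 417 in WT, a log2 difference of -3.32 (SE 0.37, adjusted p = 0.00623). The WT animals lay close together for Igfl3, and the same held for Ddr2, a collagen-binding receptor kinase, with 227 to 387 in Hmga2-/- and 360 to 572 in K5H2, against 1171 to 1417 in WT (log2 difference -1.86, SE 0.20, adjusted p = 0.00615). Both calls were lost only without WT 3. Nrg1, a ligand of ErbB receptors, had 25, 25 and 16 in Hmga2-/-, 80, 169 and 56 in K5H2, and 1415, 152 and 298 in WT. It fell (log2 difference -3.14, SE 0.60, adjusted p = 0.0325) although K5H2 2 overlapped with WT 2, and it was the only call among 13 tested EGF family ligands and receptors, none of which was separated. The call of Nrg1 held in 2 of the 9 leave-one-out fits.

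Cell division genes had small differences in the same direction. All 30 tested members had log2 differences below 0 (median -0.57), 4 fell and 13 were separated lower, against 1.26% and 5.54% of all genes. Plk1, a kinase of mitosis, had 624, 578 and 320 normalized counts in Hmga2-/-, 480, 553 and 543 in K5H2, and 1478, 920 and 1085 in WT (log2 difference -1.17, SE 0.22, adjusted p = 0.0325). Bub1, a spindle checkpoint kinase, and Tpx2, a spindle assembly factor, fell by 0.99 and 0.71 (both adjusted p = 0.0325). The proliferation marker Mki67 was separated, with 2992 to 4938 in the 6 non-WT libraries and 5239 to 6280 in WT, but was not called (adjusted p = 0.0874). None of the 26 tested DNA replication genes was called, and 5 were separated lower. Of the 9 leave-one-out fits, 4 kept the call of Plk1, 3 that of Tpx2 and 2 that of Bub1, and without both WT 1 and Hmga2-/- 3 none of the 4 division calls held.

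**Figure D3:**
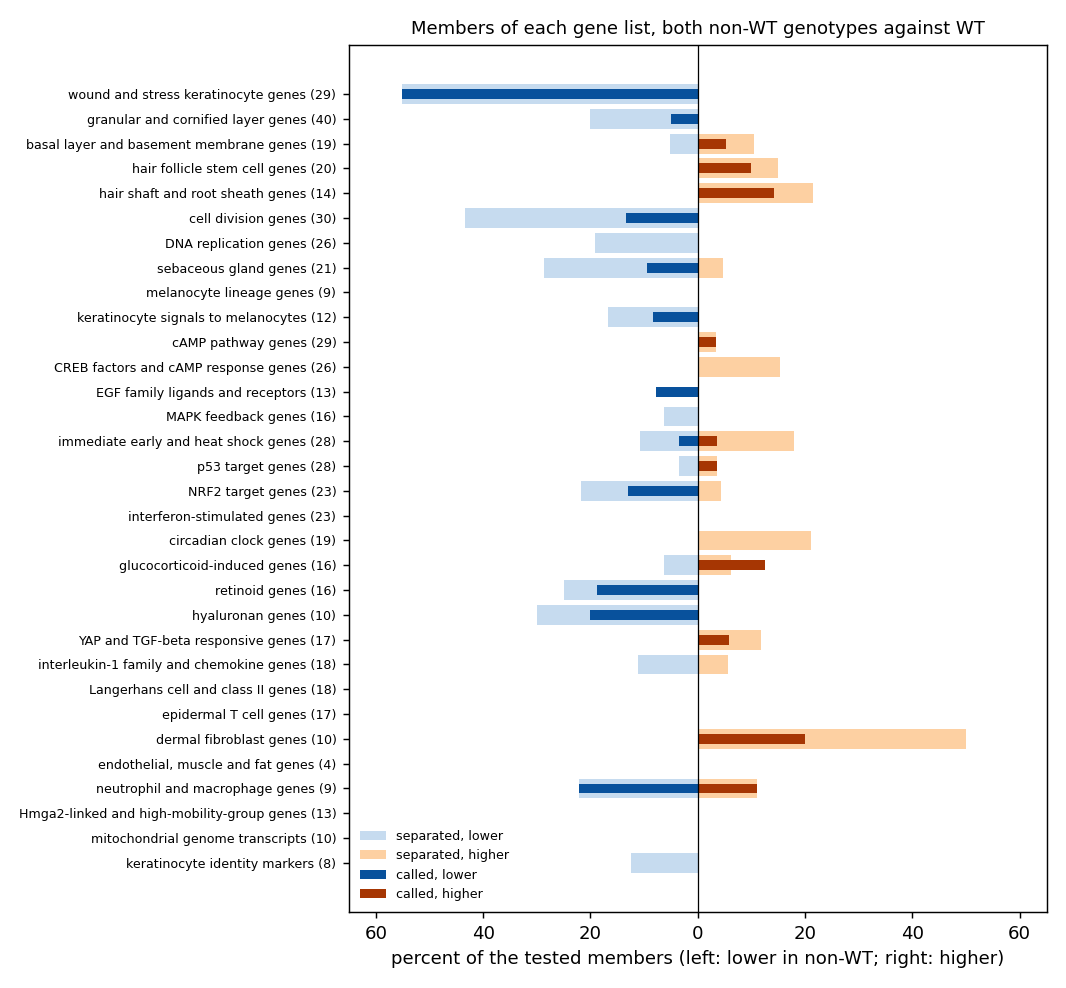
For each gene list (rows, number of tested members in brackets), wide pale bars give the percent of tested members that were separated and narrow dark bars the percent called, to the left where lower and to the right where higher in the non-WT genotypes. The wound and stress list has the longest bars to the left, 16 of 29 members, and the dermal fibroblast list the longest pale bar to the right, 5 of 10.

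Among the higher genes were regulators of metabolism. Txnip, a thioredoxin-interacting regulator of glucose uptake, had 9621 to 17943 normalized counts in Hmga2-/- and 15723 to 19925 in K5H2, against 3331 to 7364 in WT (log2 difference 1.60, SE 0.25, adjusted p = 0.0192). Glul, glutamine synthetase, rose as well (1.61, adjusted p = 0.0325). Both were chosen after their values were seen, and their calls held in 7 (Txnip) and 1 (Glul) of the 9 leave-one-out fits.

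Glucocorticoid-induced genes had a median of 0.68 over 16 tested members, with 2 rises, no fall and 14 not past the threshold, against 0.486% called higher among all genes. Of the 16, 1 was separated higher and 1 lower, against 3.69% separated higher and 5.54% separated lower among all genes. Tsc22d3, which encodes the glucocorticoid-induced leucine zipper protein, had 4949, 3156 and 6385 normalized counts in Hmga2-/-, 8576, 8571 and 5608 in K5H2, and 971, 2535 and 1790 in WT (log2 difference 1.84, SE 0.30, adjusted p = 0.0211). Zbtb16, a zinc-finger transcription factor, had 270, 383 and 1160 in Hmga2-/-, 2605, 2413 and 1683 in K5H2, and 117, 290 and 260 in WT, so that Hmga2-/- 1 overlapped with WT 2 (log2 difference 2.33, SE 0.43, adjusted p = 0.0282). Fkbp5, a chaperone of the glucocorticoid receptor, had a log2 difference of 1.23 and was not called. The list's summed level was 29516 to 39719 in Hmga2-/-, 34303 to 49606 in K5H2 and 23566 to 24884 in WT. Each call held in 5 of the 9 leave-one-out fits.

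Of 14 tested hair shaft and root sheath genes 2 rose, Krt32 and Krt33a, 12 did not pass and 3 were separated higher (median 0.29). Of 19 tested basal layer and basement membrane genes 1 rose, Krt15, and 18 did not pass, with 2 separated higher and 1 lower and 11 differences below 0 (median -0.26). Of all genes 0.486% were called higher and 3.69% separated higher. Krt32, a type I keratin of the hair cuticle, had 972, 687 and 1565 normalized counts in Hmga2-/-, 719, 713 and 581 in K5H2, and 132, 265 and 241 in WT (log2 difference 2.01, SE 0.28, adjusted p = 0.0154). Krt15, a keratin of basal cells and of the follicle bulge, had 180655, 147214 and 317010 in Hmga2-/-, 164810, 127828 and 128342 in K5H2, and 31111, 75995 and 66044 in WT. Each non-WT library lay above each WT library for both genes, and Hmga2-/- 3 was the highest of all (Krt15 log2 difference 1.64, SE 0.34, adjusted p = 0.0399). The hair keratin Krt33a was low throughout, at 23, 32 and 23 in Hmga2-/-, 14, 14 and 11 in K5H2, and 2, 0 and 4 in WT (log2 difference 2.97, SE 0.53, adjusted p = 0.0257). Of 20 tested hair follicle stem cell genes 2 rose: Fgf18, a growth factor of the resting follicle (1.30, adjusted p = 0.023), and Lgr6, a receptor of epidermal stem cells (1.05, adjusted p = 0.0239). The others, with Cd34 at -0.61 and Sox9 at 0.06, did not pass, and the list's median was 0.10. Of the 9 leave-one-out fits, 7 kept the call of Krt32, 6 that of Fgf18, 5 that of Lgr6, 3 that of Krt33a and 2 that of Krt15.

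Ptgds, Ptgdr, Adora1 and Oxtr rose. Ptgds, a prostaglandin D2 synthase, had 122, 88 and 96 normalized counts in Hmga2-/-, 111, 89 and 79 in K5H2, and 24, 26 and 23 in WT, a log2 difference of 1.95 (SE 0.23, adjusted p = 0.00855). Levels were even within each genotype, the gap was 1.57, and the call was lost only without WT 3. Ptgdr, a receptor of prostaglandin D2 and chosen after its values were seen, rose by 1.01 (adjusted p = 0.0451). Adora1, the adenosine A1 receptor, which lowers cAMP through inhibitory G proteins, had 42, 30 and 33 in Hmga2-/-, 76, 58 and 38 in K5H2, and 5, 9 and 9 in WT (log2 difference 2.41, SE 0.34, adjusted p = 0.0157). Oxtr, the oxytocin receptor, had 185, 149 and 164 in Hmga2-/-, 455, 251 and 309 in K5H2, and 86, 45 and 57 in WT (log2 difference 1.93, SE 0.25, adjusted p = 0.0145). All 3 receptors were separated. In 3 of the 58 genes called higher and separated, Adora1 among them, every WT value was under 10. They passed the filter through non-WT libraries alone. In 5 of the 157 called lower and separated every non-WT value was under 10. The call of Adora1 held in 7 of the 9 leave-one-out fits, that of Oxtr in 8 and that of Ptgdr in 1.

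Adora1 was the only call among 29 tested genes of the cAMP pathway, whose median was 0.28. Adenylyl cyclases Adcy6 and Adcy7 had values of 0.71 and 0.51 and were not called (adjusted p = 0.145 and 0.152). Of 26 tested CREB factors and cAMP response genes none was called, and 4 were separated, all higher, against 3.69% of all genes. These were Fosb (2.00, adjusted p = 0.0919), Nr4a1 (1.67, adjusted p = 0.065), Gem (1.33, adjusted p = 0.068) and Sik1 (0.75, adjusted p = 0.0528). Nr4a1, an orphan nuclear receptor induced by cAMP and by stress, had 165, 608 and 246 normalized counts in Hmga2-/-, 354, 505 and 183 in K5H2, and 104, 97 and 86 in WT. The spread within each non-WT genotype was wide, with Hmga2-/- 2 and K5H2 2 highest.

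Matrix genes rose beside markers of dermal fibroblasts. Ccn2, a matricellular protein controlled by YAP and TGF-beta, had 777, 808 and 727 normalized counts in Hmga2-/-, 2447, 1705 and 1467 in K5H2, and 433, 273 and 249 in WT (log2 difference 1.94, SE 0.21, adjusted p = 0.00615). Its level was even in Hmga2-/- and higher still in K5H2, where the difference between the genotypes was not called (adjusted p = 0.0544). Ccn2 was the only call among 17 tested YAP and TGF-beta responsive genes, whose median was 0.094, and 2 were separated higher. Of all genes 0.486% were called higher and 3.69% separated higher. Col1a2, a chain of type I collagen, had 360, 183 and 94 in Hmga2-/-, 1069, 236 and 80 in K5H2, and 17, 23 and 15 in WT, with the widest gap of the higher genes, 1.75 (log2 difference 3.56, SE 0.67, adjusted p = 0.032). Sparc, a collagen-binding matrix protein, rose by 0.96 (adjusted p = 0.0304). Col4a2, a basement membrane collagen chosen after its values were seen, rose by 1.57 (adjusted p = 0.028). The calls of Col1a2 and Sparc held in 3 of the 9 leave-one-out fits, that of Col4a2 in 4 and that of Ccn2 in 8.

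Of 10 tested dermal fibroblast genes 2 rose, none fell and 5 were separated higher (median 0.83), against 0.486% called higher and 3.69% separated higher among all genes. The summed level of the list was of 2036 to 2431 normalized counts in Hmga2-/-, 1994 to 5133 in K5H2 and 941 to 1448 in WT. Col1a1 and Col3a1 were separated and not called (log2 differences 3.14 and 4.07; adjusted p = 0.0839 and 0.0565), and the fibroblast marker Mfap5 was at 0 in all 9 libraries. K5H2 1 was highest for Col1a1, Col1a2 and Col3a1. The part of these cells in the rises of matrix genes was not tested.

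Among the lists of immune cells only that of neutrophil and macrophage genes held calls. None of 18 Langerhans cell and class II genes and none of 17 epidermal T cell genes was called, though 16 of each list had values above 0 (medians 0.60 and 0.43). Their summed levels overlapped: Langerhans cell genes had 22294 to 49975 normalized counts in the 6 non-WT libraries and 11059 to 34793 in WT, and T cell genes 2622 to 6014 in the 6 and 1819 to 5803 in WT. WT 1 was the lowest library for both. Among 9 tested neutrophil and macrophage genes S100a8 and S100a9, calcium-binding proteins that stressed keratinocytes make as well, fell (-3.64 and -3.08; adjusted p = 0.0304 and 0.0415), and Arg1, arginase, rose (1.26, adjusted p = 0.0239). The other 6 did not pass, and 2 of the 9 were separated lower and 1 higher (median -1.18). Of all genes 1.26% were called lower, 0.486% called higher, 5.54% separated lower and 3.69% separated higher. S100a8 and S100a9 overlapped between K5H2 2 and WT 2. Their calls held in 3 and 2 of the 9 leave-one-out fits, and that of Arg1 in 5. The neutrophil genes Ly6g and Retnlg were at 0 in every library, and the part of other immune cells was not tested.

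Several other programmes showed no call or a single call. None of 23 interferon-stimulated genes (median -0.06), 16 MAPK feedback genes (-0.32), 18 interleukin-1 family and chemokine genes (-0.28), 19 circadian clock genes (0.31) or 9 melanocyte lineage genes (0.25) was called. Of the 19 clock genes 4 were separated, all higher, against 3.69% of all genes. Of 28 tested p53 target genes only Sesn1, a stress-induced regulator of growth signalling, rose, with 1439 to 1607 normalized counts in Hmga2-/- and 2359 to 2553 in K5H2, against 865 to 1290 in WT (log2 difference 0.91, SE 0.14, adjusted p = 0.0174; held in 7 of the 9 leave-one-out fits). Cdkn1a and Mdm2, further p53 targets, had values of 0.12 and -0.01. Of 12 tested keratinocyte signals to melanocytes Nrg1 alone was called. None of 13 Hmga2-linked and high-mobility-group genes was called (median -0.24).

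**Figure D4:**
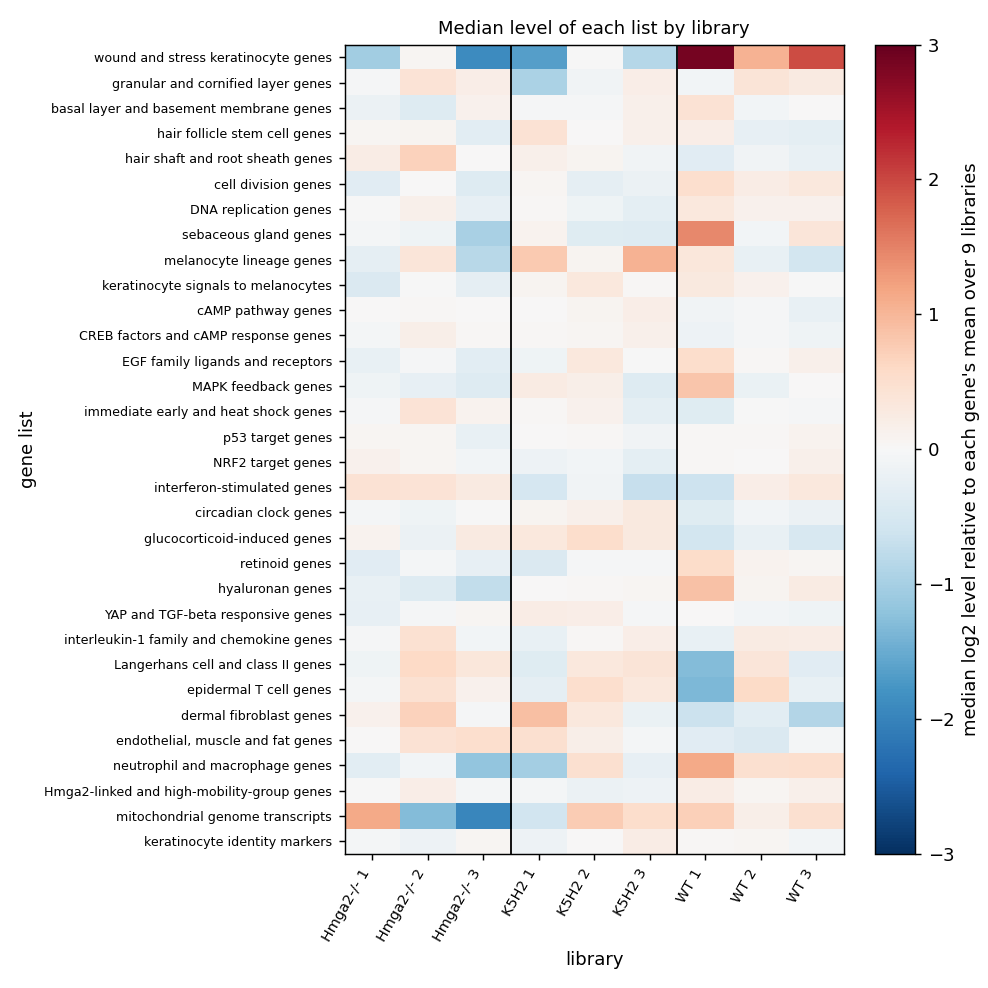
Colour gives the median log2 level of each list's tested members (rows) in each library (columns), with each gene's mean over all 9 libraries set to 0. The wound and stress list reads 2.87, 1.05 and 1.95 in WT 1 to 3 and at most 0.06 in every other library, while the lists of Langerhans cell and T cell genes read lowest in WT 1, at -1.29 and -1.34.

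Among the called and separated genes, the K5H2 mean lay above the Hmga2-/- mean more often than below it. The counts that follow are descriptions and not a test. The mean log2 level was higher in K5H2 than in Hmga2-/- for 105 of the 157 lower genes and lower for 52. Among the 58 higher genes K5H2 lay above Hmga2-/- in 40. Over all 12968 tested genes K5H2 lay above in 6535, with a median K5H2 minus Hmga2-/- log2 difference of 0.0041, against 0.20 in the 157 and 0.20 in the 58. The K5H2 minus Hmga2-/- difference was smaller than 0.5 times the pooled difference in 132 of the 157 and 46 of the 58. Choosing these genes by pooled difference and separation favours that outcome, and the share over all tested genes was not counted. A direct test of K5H2 against Hmga2-/- called 37 protein-coding genes (0.285% of those tested), 23 higher (0.177%) and 14 lower in K5H2 (0.108%). Of these, 6 were among the 227 called in the pooled contrast: Trim12a, Klhdc4, Pnpla8, Pik3r1, Skint8 and Prune2. For the rest of the 227 the difference between the genotypes was not called. Without WT 1 the direct test called 160 genes, and without the other libraries between 9 and 30.

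Krt6b shows the range: it was -6.05 for Hmga2-/- and -3.19 for K5H2, each against the same WT libraries. Lrat was -6.83 for Hmga2-/- and -3.73 for K5H2. For neither Krt6b nor Lrat was the difference between K5H2 and Hmga2-/- called. Ptgds was 2.01 for Hmga2-/- and 1.88 for K5H2. Fabp5 stood at nearly the same distance in both, -2.14 for Hmga2-/- and -2.05 for K5H2. Trim12a was called in the pooled contrast without being separated. The gene, of a family of antiviral TRIM proteins, was listed at 0 in all 3 K5H2 libraries, with 298, 247 and 358 normalized counts in Hmga2-/- and 76, 218 and 212 in WT. Its pooled value of -3.15 (adjusted p = 0.00809) averages a K5H2 group at 0 and an Hmga2-/- group whose difference from WT, 0.96, was not called (adjusted p = 0.199).

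**Figure D5:**
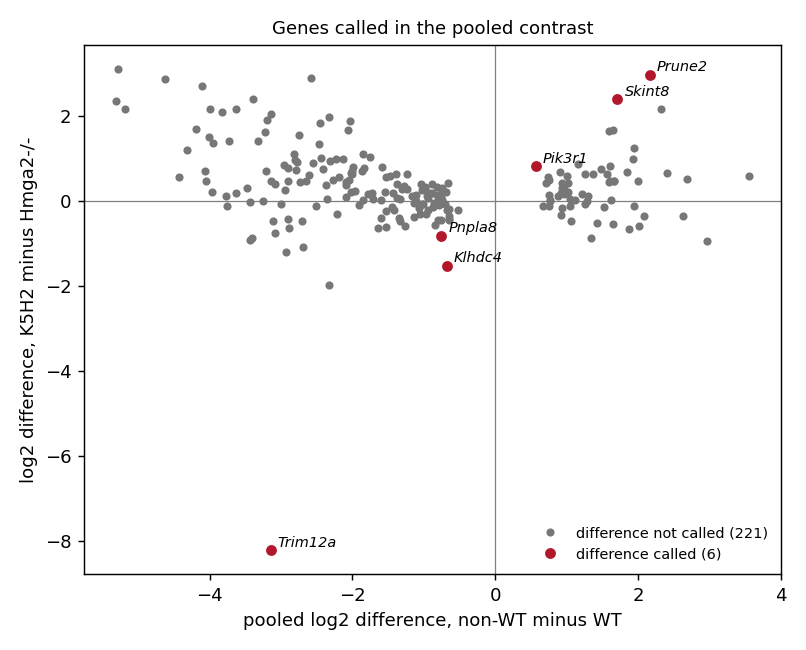
Each point is a gene called in the pooled contrast, with the pooled log2 difference (non-WT minus WT) on the x axis and the K5H2 minus Hmga2-/- log2 difference on the y axis. The 6 genes whose difference between the genotypes was also called are red and named, and the other 221 are grey; Trim12a lies far below the rest at -8.22.

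Some called and separated genes lay side by side on a chromosome. With starts within 200 kb of each other, 31 of the 157 lower genes made up 12 runs of neighbours and 4 of the 58 higher genes 1 run. How often other tested genes lie this close was not counted. Called genes set the ends of each span, which raises the shares within it. Of all genes 1.26% were called lower and 5.54% separated lower, and 0.486% were called higher and 3.69% separated higher. On chromosome 3 (92285417 to 92438789) Sprr2a3, Sprr2d, Sprr2e, Sprr2h and Sprr1b fell, 5 of 9 tested genes in the span, and 7 of the 9 were separated. Nearby on the same chromosome (92957390 to 92993426) Lce3d, Lce3e and Lce3f all fell. On chromosome 15 (101624028 to 101694307) Krt6b, Krt6a and Gm5414 fell, on chromosome 16 (36210403 to 36408457) 4 of 6 genes of the stefin A cluster, and on chromosome 14 (57098600 to 57133611) Gjb2 and Gjb6. On chromosome 7 (43712567 to 43832030) Klk13 and Klk6 fell, 2 of 8 tested genes in the span, and 3 of the 8 were separated. The higher run lay in the type I keratin cluster of chromosome 11 (100011195 to 100135928), where Krt33a, Krt32, Krt13 and Krt15 rose and all 5 tested genes were separated.

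The 250 bases before the start of transcription were read from RefSeq (GRCm38.p6, the first start listed for each gene), which gave a window for 116 of the 157 lower genes, 40 of the 58 higher genes and 10180 of the 12968 tested. The windows of 4 genes are shown: Igfl3, which fell, and Krt32, Adora1 and Ptgds, which rose. They were chosen after their values were seen and for holding a motif. Capitals mark TATAAA, the TATA box, in Igfl3 and Krt32, and an AP-1 element (TGANTCA, bound by Fos and Jun proteins) in Adora1 and Ptgds. The windows lie at chr7:18176244-18176493 (plus strand), chr11:100088270-100088519, chr1:134235458-134235707 and chr2:25469750-25469999 (all minus strand).
Igfl3: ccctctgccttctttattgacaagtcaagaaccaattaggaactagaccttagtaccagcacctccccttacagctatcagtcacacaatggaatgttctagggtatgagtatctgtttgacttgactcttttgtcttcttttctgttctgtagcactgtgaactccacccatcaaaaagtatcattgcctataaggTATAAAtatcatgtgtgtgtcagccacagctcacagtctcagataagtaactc
Krt32: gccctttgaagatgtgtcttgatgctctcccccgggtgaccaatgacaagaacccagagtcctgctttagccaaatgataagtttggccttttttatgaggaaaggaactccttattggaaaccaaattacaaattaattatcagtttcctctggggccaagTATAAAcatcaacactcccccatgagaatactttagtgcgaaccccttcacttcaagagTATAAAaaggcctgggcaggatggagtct
Adora1: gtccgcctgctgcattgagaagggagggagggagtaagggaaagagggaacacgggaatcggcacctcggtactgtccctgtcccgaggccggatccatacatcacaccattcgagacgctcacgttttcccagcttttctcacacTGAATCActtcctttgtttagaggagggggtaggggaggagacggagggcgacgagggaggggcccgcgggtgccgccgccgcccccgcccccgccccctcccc
Ptgds: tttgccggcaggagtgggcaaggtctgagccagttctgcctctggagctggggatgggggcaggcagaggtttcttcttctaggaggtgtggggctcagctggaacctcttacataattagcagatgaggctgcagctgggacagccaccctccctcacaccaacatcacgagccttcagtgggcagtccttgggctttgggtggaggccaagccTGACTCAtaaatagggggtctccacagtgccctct

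The TATA box of Igfl3 begins 53 bases before the start and those of Krt32 88 and 29 bases before it. The AP-1 element begins 104 bases before the start in Adora1 and 35 in Ptgds. Searched on both strands, TATAAA was present in 18 windows of the lower genes (15.5%), 3 of the higher genes (7.5%) and 6.39% of all windows. TGANTCA was present in 10 windows of the lower genes (8.62%), 7 of the higher genes (17.5%) and 4.72% of all. The cAMP response element TGACGTCA was found in 1 window of each set (0.862% and 2.5%), against 2.78% of all, and GGAATG, the core bound by TEAD factors, in 12.1%, 10% and 10.5%. A and T made up a median of 44.6% of the bases in windows of the lower genes and 41.6% in those of the higher genes, against 40% over all windows. These shares are descriptions without a test, and a match is no proof of a site.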

How the data were processed

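RNA of 9 epidermal keratinocyte samples was measured. The deposited table holds normalized counts, given as whole numbers, which are a score and not raw counts, per the file headers. The authors also deposited log2 fold changes and adjusted p-values of their own comparisons, per the file headers; they were not used for calls. Trim Galore, STAR, DESeq2 and GRCm38 are named in the submitters' processing notes, without tool versions. No column belonged to another series (0 such columns).

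Genes of any kind with 10 or more in at least 3 libraries (14695) entered a single limma-trend fit on log2(value + 1), two-sided, with 1 mean for each genotype and no further terms. The pooled contrast weights Hmga2-/- and K5H2 equally. Adjusted p-values are Benjamini-Hochberg over all 14695 genes, called under 0.05, and counts are of protein-coding genes. Log2 differences on this scale understate the change of low genes. Beyond protein-coding genes, 1727 genes were tested and 22 called.

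The value of 1 read in each library was estimated from genes present in that library alone, whose values lay at whole multiples of 1 step within 0.1 reads for 98.0% to 100% of genes. Most values are rounded, so reads were not recovered and no counting intervals are given. No 2 libraries of a genotype agreed within counting noise (median squared difference over counting variance 3.11 to 13.3, against 0.455).

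The genes and the 32 lists were chosen with earlier results of these data known; 657 of 667 distinct list symbols were found as protein-coding genes. Genes are named by a rule: Hmga2; among genes called and separated with a mean of at least 30 and no clone name, the 12 largest differences and 6 widest gaps in each direction; up to 3 members of each list by smallest p; and genes that also differ between K5H2 and Hmga2-/-. Some are left out for length, some results are not reported here, and list members and other genes outside the rule, such as Igfl3, Ddr2, Krt16, Gjb6, Klk13, Sprr1b and Lce3f, were chosen after their values were seen.

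Alternatives covered filters, pseudocounts, scalings, moderation, the replicate number as a block, a minimum difference and each library left out. The tools were limma 3.58.1 in R 4.3.3, and pandas 2.3.3, matplotlib 3.10.9, scipy 1.17.1 and numpy 2.4.6 in Python 3.11.15.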

Additional observations from a re-analysis of the deposited data

Results flagged for a closer look

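Of the genes called in the pooled contrast, 6 also differed between K5H2 and Hmga2-/- in a direct test (limma adjusted p). Groups of 3 libraries were too small for a check of single outlying samples.

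Trim12a had a K5H2 minus Hmga2-/- difference of -8.22 (adjusted p = 1.53e-05) on the log2(value + 1) scale, which is no fold because all 3 K5H2 libraries are listed at 0. Klhdc4, a kelch-domain protein, had 686, 646 and 559 normalized counts in K5H2, 1719, 1846 and 1920 in Hmga2-/- and 1458, 1720 and 2027 in WT, a difference of -1.54 between the non-WT genotypes (adjusted p = 0.00207). Pnpla8, a phospholipase, had 1017, 1193 and 1419 in K5H2, 2159, 2155 and 2096 in Hmga2-/- and 2981, 2537 and 2602 in WT, a difference of -0.83 (adjusted p = 0.0395); all 6 lay below WT, and K5H2 lay lowest.

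Prune2 had 151, 88 and 77 in K5H2, 10, 11 and 16 in Hmga2-/- and 5, 14 and 5 in WT, a difference of 2.96 (adjusted p = 0.024). Skint8, of a family of keratinocyte proteins linked to epidermal T cells, had 268, 328 and 569 in K5H2, 92, 73 and 51 in Hmga2-/- and 29, 81 and 48 in WT, a difference of 2.38 (adjusted p = 0.0338). Pik3r1, a regulatory subunit of phosphoinositide 3-kinase, had 4265, 3438 and 3928 in K5H2, 2411, 1924 and 2332 in Hmga2-/- and 1945, 1971 and 1997 in WT, a difference of 0.80 (adjusted p = 0.0359). In Klhdc4, Prune2, Skint8 and Pik3r1 the Hmga2-/- libraries overlapped with WT, and their Hmga2-/- against WT differences were not called (adjusted p = 0.747, 0.380, 0.435 and 0.469). In the pooled contrast the call of Klhdc4 held in 0 of the 9 leave-one-out fits, those of Skint8 and Pik3r1 in 1, that of Prune2 in 2, that of Pnpla8 in 5 and that of Trim12a in 8.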

How the results depend on the processing

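Filters, pseudocounts, scalings and robust moderation kept the counts of genes called lower (164) and higher (63) within 1.5 times. A single mean for the 6 pooled libraries gave 82 lower and 32 higher, and a test against a minimum log2 difference of 0.5 gave 15 lower and 3 higher. The libraries decided more for the calls. Leaving out each in turn gave 0 to 312 genes called lower, 1 to 189 called higher and 9 to 160 called between K5H2 and Hmga2-/-. Separated genes numbered 783 to 1520 lower and 525 to 1134 higher. Leaving libraries out can only keep or raise the separated counts, so their rise says nothing on stability. Without both WT 1 and Hmga2-/- 3 the counts were 2 lower and 4 higher, with 731 separated higher and 18 between K5H2 and Hmga2-/-. The 37 calls of K5H2 against Hmga2-/- became 249 when libraries were divided by their totals, 22 with 10 or more required in all 9 libraries, 9 with protein-coding genes only in the fit and 7 with the minimum difference. The causes were not tested. Hmga2 ranged from -4.76 (without WT 2, past the threshold) to -2.34 with single libraries left out, and had no value under the filters of 10 in all 9 or 50 in 3 libraries. Gata3, not called, had 0.46, ran from -0.0188 (without WT 1) to 0.72 (without WT 2) with single libraries left out, and reversed without both WT 1 and Hmga2-/- 3 (-0.0597).

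Of 57 named genes that were called, 53 to 57 kept the call under other pseudocounts, scalings and robust moderation, 8 without WT 1 and 1 without WT 3. Same-numbered libraries had correlations of their deviations from -0.217 to 0.209, and those with different numbers from -0.262 to 0.239. No pairing by number was seen, but deviations from means of 3 libraries cannot exclude it. With the replicate number as a block 130 genes were called lower and 51 higher, and 156 of these 181 were among the 227. Array weights were not run because their estimate did not converge. Precision is limited by 3 animals per genotype and by the lower depth of Hmga2-/- 3.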
